A study of Mus musculus with 7 samples.

Results

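The 8 genes described here, *Acta2*, *Myh11*, *Actg2*, *Des*, *Cnn1*, *Tagln*, *Myl9* and *Smtn*, encode contractile and cytoskeletal proteins of smooth muscle and, in the testis, of peritubular myoid cells. They were taken by name from a list of smooth muscle genes. Measured values were not part of that rule, but the list was chosen with earlier results of these data known. All 8 were found among the 21928 genes of the tables and all 8 were among the 13630 genes tested.

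The data are bulk RNA-seq of whole testes enriched for preleptotene spermatocytes, the germ cells about to enter meiosis, from 4 wild-type pups (WT) and 3 *Meioc*-null pups (KO, homozygous for the tm1.1Dpc null allele), all on a C57BL/6N background. Each library came from 1.5 testes of a single pup, so the libraries of a group are separate animals. Both groups received WIN18446, which blocks the synthesis of retinoic acid, daily at 0.1 mg/g from postnatal day 2 to day 8, then retinoic acid at 0.0125 mg/g on day 9, and were collected 6.75 days later. The comparison asks how transcript abundance in the synchronized testis differs when MEIOC, a germ cell protein that acts on mRNA, is missing, and for the myoid genes the question concerns somatic cells around the tubules. No untreated testes are part of the comparison, so every value is that of a drug-treated testis.

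Peritubular myoid cells are flat, smooth muscle-like cells that wrap each seminiferous tubule, contract to move its fluid and sperm, and build the basement membrane together with Sertoli cells. In smooth muscle, calcium activates a kinase that phosphorylates the regulatory light chain, which lets smooth muscle myosin pull on actin filaments, while calponin, transgelin and smoothelin bind the actin and desmin filaments hold the contractile units in place. Many of these genes carry CArG boxes, the sites of serum response factor, whose partner myocardin drives smooth muscle genes. Vascular smooth muscle cells and pericytes of the testis express most of the same genes, and in bulk tissue fewer cells of a type and less RNA per cell cannot be told apart.

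The libraries held between 12537852 and 20552702 estimated counts, and levels are given in CPM, counts in 1000000 after the library sizes were corrected for composition by TMM scaling. *Meioc* itself was counted at 468 to 720 CPM in WT and at 300 to 413 CPM in KO, without overlap (log2 fold change 0.76, standard error 0.16), which follows the labels although many counts remained in KO. Fold changes are WT over KO, so a negative log2 value is a higher abundance in KO, and a gene was called at an adjusted p under 0.05 in the quasi-likelihood test of edgeR, adjusted by Benjamini-Hochberg over all tested genes. Of 12 germ cell genes, 8 were called higher in WT and 1 was called lower (75.0%, beside 11.1% of all tested genes called in either direction). Their summed level was 2823 to 3604 CPM in WT and 1969 to 2205 CPM in KO.

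Promoters are shown where a serum response factor site could be looked for by its letters, in the RefSeq promoter sequences of GRCm38.p6, which span 250 bases before to 50 bases after a gene start. Of the 8 genes, 5 matched a promoter (*Acta2*, *Des*, *Cnn1*, *Myl9* and *Smtn*). The 10-letter CArG box was searched on both strands, exactly and with at most 1 mismatch. The matches are given with 10 bases on each side, the matching letters in capitals:
*Myl9* site 1, chr2:156775293-156775322, + strand: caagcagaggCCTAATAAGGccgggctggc
*Myl9* site 2, chr2:156775355-156775384, + strand: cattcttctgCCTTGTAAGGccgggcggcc
*Acta2* site 1, chr19:34255438-34255467, - strand: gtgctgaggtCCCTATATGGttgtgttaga
*Acta2* site 2, chr19:34255388-34255417, - strand: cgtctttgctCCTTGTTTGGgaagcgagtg

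Site 1 of *Myl9*, 161 to 152 bases before the start, is an exact CArG box, which 1.63% of the 32851 promoters in the table held. Site 2 of *Myl9*, 99 to 90 bases before the start, and both *Acta2* sites, at 84 to 75 and 34 to 25 bases, carry 1 mismatch, and 21.1% of promoters held a match at that tolerance. In the windows of *Des*, *Cnn1* and *Smtn* these letters were not found. Distances are counted from the RefSeq start of each promoter, which differs from the GENCODE gene bounds given below. Both *Acta2* sites lie inside the GENCODE span of the gene (34241090 to 34255590, - strand). Both *Myl9* sites lie before its GENCODE start at 156775420. These are matches of letters only.

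Across the 8 genes, 1 was called, *Des*, which was higher in KO. That is 12.5% of the genes, beside 11.1% of all tested genes called in either direction (1513 of 13630) and 3.33% called lower in WT. The median log2 fold change of the 8 genes was 0.01, beside -0.01 for all tested genes, with 4 genes on each side of 0. The groups did not overlap for 1 of the 8 genes, again *Des*, beside 26.2% of all tested genes. The summed level of the 8 genes was 712 to 805 CPM in WT and 688 to 808 CPM in KO, so the groups overlapped.

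**Figure D1:**
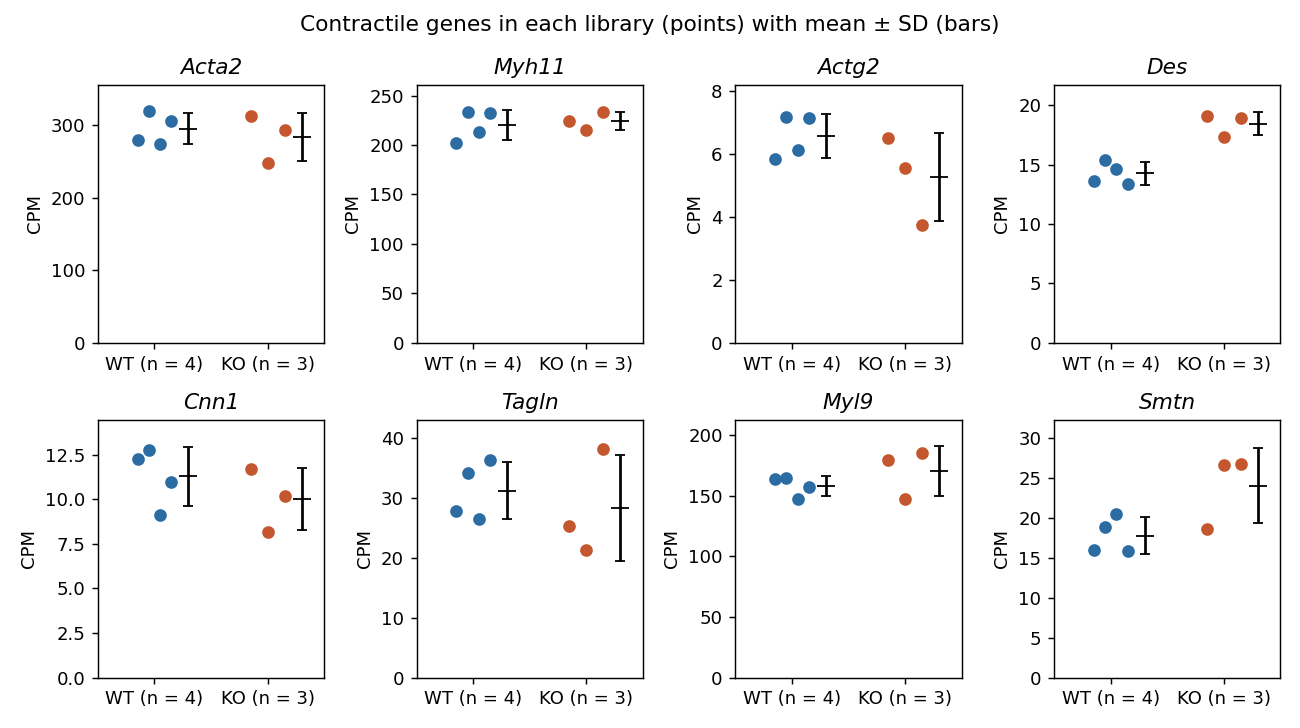
CPM of the 8 contractile genes, 1 panel a gene, with 1 point a library (WT in blue, n = 4; KO in orange, n = 3) and mean ± SD beside them, on axes that start at 0. For *Des* the KO points, at 17.3 to 19.1 CPM, lie above the WT points, at 13.4 to 15.4 CPM, and in the other 7 panels the groups overlap.

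*Myh11* on chromosome 16 (from 14194535 to 14291372, GRCm38, - strand) encodes the smooth muscle myosin heavy chain, the motor of the contractile filament. It was counted at 202, 233, 213 and 233 CPM in WT replicates 1 to 4 and at 224, 215 and 233 CPM in KO replicates 1 to 3. KO replicate 3 was level with the highest WT libraries and the other KO libraries were inside the WT range. The highest library was 1.15 times the lowest, the smallest spread of the 8 genes. The log2 fold change was -0.02 (standard error 0.08, 95% confidence interval -0.20 to 0.15, adjusted p = 0.865 by edgeR), the narrowest interval of the 8 genes.

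*Myl9* on chromosome 2 (from 156775420 to 156781658, + strand) encodes the regulatory light chain that myosin light chain kinase phosphorylates. Its levels were 164, 164, 147 and 157 CPM in the WT libraries and 180, 147 and 185 CPM in the KO libraries. Replicates 1 and 3 of KO were above every WT library, and KO replicate 2 was just below the lowest WT library. The log2 fold change was -0.11 (standard error 0.09, interval -0.32 to 0.10, adjusted p = 0.462 by edgeR).

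*Acta2* on chromosome 19 (from 34241090 to 34255590, - strand) encodes smooth muscle alpha actin, the usual marker of myoid cells in testis sections. The WT libraries held 279, 319, 274 and 305 CPM and the KO libraries 312, 247 and 293 CPM. KO replicate 2 was below the WT range and the other KO libraries were inside it. At a log2 fold change of 0.05 (standard error 0.10, interval -0.16 to 0.27, adjusted p = 0.743 by edgeR), *Acta2* was not called.

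*Actg2* on chromosome 6 (from 83512905 to 83536265, - strand) encodes smooth muscle gamma actin, the enteric form. It was far less abundant than *Acta2*, at 5.85, 7.20, 6.15 and 7.17 CPM in WT and 6.51, 5.58 and 3.75 CPM in KO. The last of these, KO replicate 3, was the lowest library for this gene while it was the highest for *Myh11*, *Tagln*, *Myl9* and *Smtn*. Its log2 fold change of 0.32 had the largest standard error of the 8 genes (0.20; interval -0.13 to 0.78; adjusted p = 0.314 by edgeR), on 69 to 142 counts a library.

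*Cnn1* on chromosome 9 (from 22099216 to 22109630, + strand) encodes calponin 1, an actin-binding protein that slows the myosin motor. The WT libraries held 12.3, 12.8, 9.12 and 11.0 CPM and the KO libraries 11.7, 8.19 and 10.2 CPM. WT and KO overlapped (log2 fold change 0.16, standard error 0.17, interval -0.21 to 0.54, adjusted p = 0.535 by edgeR).

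*Tagln* lies on the same chromosome (from 45929619 to 45936058, - strand) and encodes transgelin (SM22), which cross-links actin. It varied most among the KO libraries: 25.3, 21.2 and 38.1 CPM, so that KO held both the lowest and the highest library, around WT values of 27.8, 34.0, 26.4 and 36.3 CPM. The SD was 31.3% of the mean in KO and 15.3% in WT. The log2 fold change was 0.14 (standard error 0.20, interval -0.30 to 0.58, adjusted p = 0.658 by edgeR).

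*Smtn* on chromosome 11 (from 3517523 to 3540612, - strand) encodes smoothelin, an actin-binding protein of contractile smooth muscle. It was counted at 16.0, 18.9, 20.5 and 15.8 CPM in WT and at 18.6, 26.7 and 26.8 CPM in KO. Replicates 2 and 3 of KO were above all WT libraries, and KO replicate 1 lay within the WT range. The log2 fold change of -0.43 was the largest of the 8 genes in size (standard error 0.16, interval -0.78 to -0.08), but the adjusted p of 0.0997 by edgeR did not pass the threshold. It passed without KO replicate 1 (log2 fold change -0.59, adjusted p = 0.0261 by edgeR) and in none of the other 16 alternative fits.

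*Des* on chromosome 1 (from 75360329 to 75368579, + strand) encodes desmin, the muscle intermediate filament protein, which myoid cells share with vascular smooth muscle and striated muscle. The WT libraries held 13.6, 15.4, 14.7 and 13.4 CPM, and the KO libraries held 19.1, 17.3 and 18.9 CPM. Every KO library was above every WT library, and the spread within a group was small (14.3 ± 0.94 CPM, SD, n = 4, in WT and 18.4 ± 0.98 CPM, SD, n = 3, in KO). The level in KO was 1.30 times that in WT (log2 fold change -0.37, standard error 0.10, interval -0.61 to -0.14, adjusted p = 0.0493 by edgeR). The direction held in all 17 alternative fits, with log2 fold changes of -0.61 to -0.32, but the call did not: *Des* was called in 5 of 10 fits with another tool, scaling, filter or model, and in 0 of the 7 fits that left out 1 library, whichever it was (adjusted p 0.0658 to 0.132 by edgeR).

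**Figure D2:**
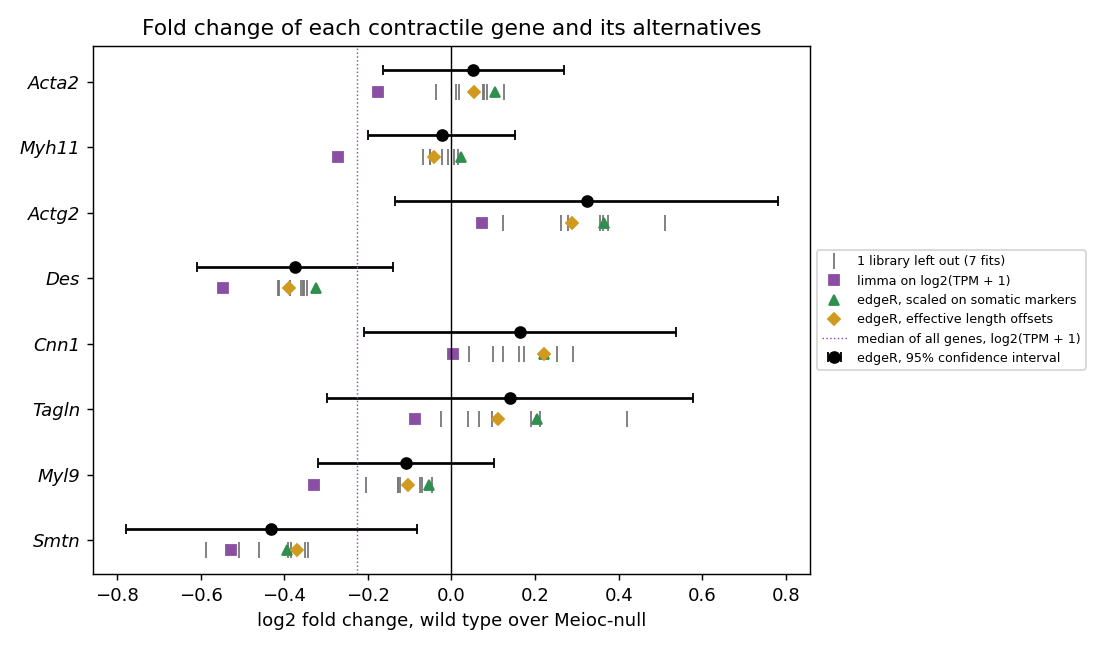
Log2 fold change, WT over KO, of each contractile gene: the edgeR value with its 95% confidence interval (black), the 7 fits that leave out 1 library (grey ticks), the TPM-based limma fit (squares), and edgeR scaled on somatic markers (triangles) or with effective length offsets (diamonds). The intervals of *Des* and *Smtn* lie below 0 and the others cross it; on log2(TPM + 1) the genes shift left together with the median of all tested genes (dotted line, -0.23).

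The cells in which *Des* differed cannot be read from these libraries. Among 12 markers of vascular smooth muscle and pericytes, 11 passed the filter and 0 were called, beside 11.1% of all tested genes. An unadjusted p under 0.05 was found for 2, beside 30.3% of all tested genes. These were *Rgs5*, higher in WT without overlap (log2 fold change 0.38, adjusted p = 0.0569 by edgeR), and *Cspg4*, higher in KO (log2 fold change -0.38, adjusted p = 0.120 by edgeR). The summed level of the vascular and pericyte markers was 165 to 178 CPM in WT and 176 to 188 CPM in KO, which overlap. *Mcam* alone held 75.9 to 96.9 CPM of it in WT and 88.4 to 103 CPM in KO. Of 17 skeletal muscle genes, 10 passed the filter, and *Myh1* was called higher in WT and *Neb* higher in KO (20.0%, beside 11.1% of all tested genes). Of the 10, 7 had a log2 fold change above 0 and 3 below. The summed level was 442 to 567 CPM in WT and 557 to 939 CPM in KO, which overlap. *Ttn* alone held 210 to 299 CPM of it in WT and 306 to 651 CPM in KO. In TPM the sum was 90.2 to 111 in WT and 83.4 to 111 in KO. The levels of these genes were uneven: *Acta1*, at 0 to 0.185 TPM, and *Ckm*, at 0.077 to 0.536 TPM, were near 0 in every library, while *Actn3* was at 38.8 to 72.8 TPM and *Neb*, *Ttn* and *Myh1* averaged 10.4, 7.66 and 6.46 TPM. *Myh1* kept its call in 4 and *Neb* in 3 of the 7 fits without a library. The part of these cells in the *Des* difference was not tested.

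Levels of different genes can be compared only per length, and for this the authors' TPM was used, the number of a gene's transcripts in 1000000 transcripts. The order of the means over the 7 libraries was *Acta2* (294 TPM), *Myl9* (230 TPM), *Myh11* (57.6 TPM), *Tagln* (29.7 TPM), *Cnn1* (9.10 TPM), *Smtn* (7.76 TPM), *Actg2* (7.74 TPM) and *Des* (7.31 TPM). *Acta2* and *Myl9* led all others by a wide margin and together held most of the summed TPM of the 8 genes, *Acta2* 43.1% to 47.5% and *Myl9* 33.6% to 37.8%. *Acta2* was above *Myl9* in 7 of 7 libraries, although the ranges over all libraries touched, and *Myl9*, *Myh11* and *Tagln* were each apart from the next gene down.

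The 4 least abundant genes, *Cnn1*, *Smtn*, *Actg2* and *Des*, did not stand apart from one another. *Cnn1* was above *Smtn* in 5 of 7 libraries, *Smtn* above *Actg2* in 3 of 7, and *Actg2* above *Des* in 5 of 7. Their order over all libraries held in neither group: the means were 9.11 TPM for *Cnn1*, 7.83 TPM for *Actg2*, 6.32 TPM for *Smtn* and 5.94 TPM for *Des* in WT. In KO they were 9.68 TPM for *Smtn*, 9.13 TPM for *Des*, 9.08 TPM for *Cnn1* and 7.61 TPM for *Actg2*.

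On the TPM scale the 8 genes looked higher in KO. Their summed TPM was 542 to 631 in WT and 676 to 728 in KO, without overlap, and the groups were apart for *Acta2*, *Myh11*, *Myl9* and *Des*. The share of all tested genes that were apart in TPM was not computed, so this is a description only. On log2(TPM + 1) the median log2 fold change of all 13630 tested genes was -0.23, and that of the 8 genes was -0.22. On that scale limma called *Myh11*, *Myl9* and *Des*, all higher in KO. Beside them, 2522 of all 13630 tested genes were called, of which 17.4% were higher in WT. Relative to the median of all genes, the median of the 8 genes was therefore shifted by 0.003 on log2(TPM + 1) and by 0.02 in the edgeR fit.

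Each of the 8 genes has near relatives in other cells, and their levels show how much of the tissue's actin, myosin and calponin mRNA is of the smooth muscle kind. Protein was not measured in these libraries. The cytoplasmic actins *Actb*, at 1587 TPM, and *Actg1*, at 545 TPM, were above *Acta2*, whereas the striated muscle actins *Acta1* and *Actc1* were near 0. The nonmuscle light chains *Myl12a* (368 TPM) and *Myl12b* (287 TPM) were above *Myl9*, while *Myh11* was above the nonmuscle heavy chains *Myh9* (46.6 TPM), *Myh10* (17.5 TPM) and *Myh14* (4.11 TPM). For the calponins the smooth muscle form was the least abundant, with *Cnn3* at 166 TPM and *Cnn2* at 24.1 TPM.

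Of the 16 relatives, 12 passed the filter and 0 were called by edgeR, beside 11.1% of all tested genes. An unadjusted p under 0.05 was found for 3, beside 30.3% of all tested genes. The remaining relatives that passed were the intermediate filament gene *Vim* at 422 TPM, the transgelin gene *Tagln2* at 9.59 TPM and the smoothelin-like gene *Smtnl2* at 6.39 TPM. *Tagln3*, at 0 to 0.317 TPM, and *Smtnl1*, at 0 to 0.147 TPM, were near 0. Of the 12 that passed, 1 had WT and KO ranges that were apart in CPM, *Tagln2*, beside 26.2% of all tested genes. *Tagln2* held 9.91 ± 1.60 CPM (SD, n = 4) in WT and 13.0 ± 0.54 CPM (SD, n = 3) in KO. Its adjusted p was 0.107 by edgeR.

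**Figure D3:**
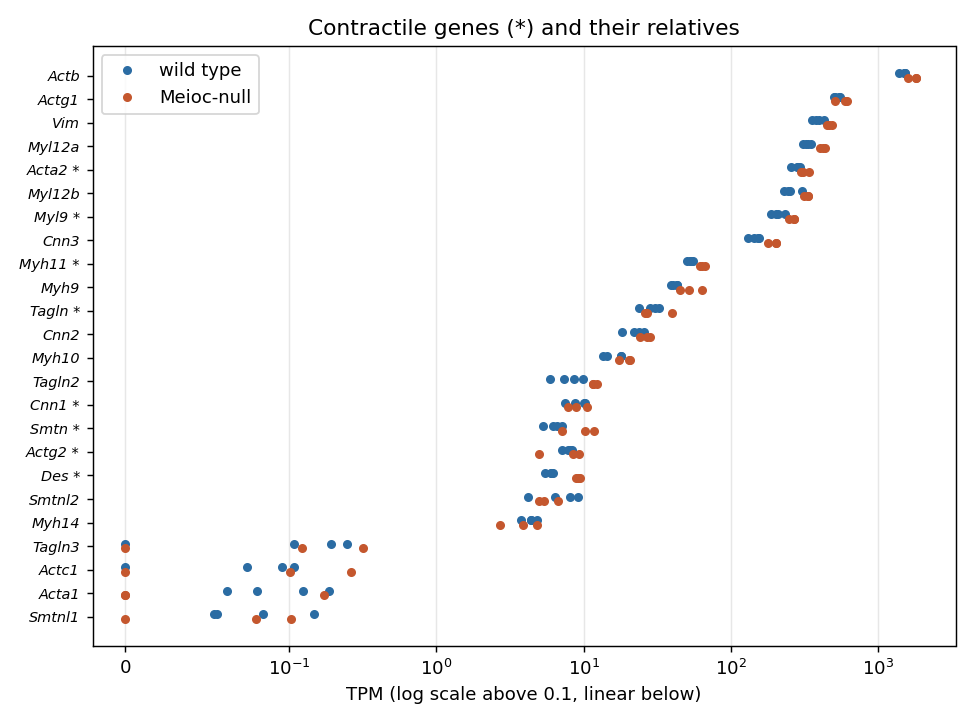
TPM of the 8 contractile genes (asterisks) and their 16 relatives in each library, WT in blue and KO in orange, on an axis that is logarithmic above 0.1 and linear below. *Acta2* and *Myl9* sit at 187 to 337 TPM, below *Actb* and *Actg1*, while *Cnn1*, *Smtn*, *Actg2* and *Des* sit together at 5.0 to 11.7 TPM and the striated actins are near 0.

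Few of the letters of the 8 genes are shared with these relatives. Of the 31-base words in the annotated transcripts (the length kallisto matches by default), 1.30% of those of *Acta2* also occur in another gene, most in *Actg1*, and 1.06% of those of *Myh11*, most in *Myh9*; for these 2 genes the annotation used here holds another version of the transcript than the one counted (2035 against 1781 bases for *Acta2* and 6549 against 6632 for *Myh11*). The share was 0.749% for *Actg2*, 0.455% for *Myl9* and 0.200% for *Des*, and 0 for *Cnn1*, *Tagln* and *Smtn*. *Des*, *Tagln* and *Smtn* overlap genes on the opposite strand, and the authors' counting used strand.

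Beyond the 8 genes, 33 further genes of the contractile apparatus were listed, and 31 passed the filter. Of these, 0 were called higher in WT and 2 were called lower, which is 6.45% against the 11.1% of all genes, and the median log2 fold change was -0.08. *Hspb1*, a small heat shock protein that binds actin and is phosphorylated during contraction, was at 52.5 ± 4.94 CPM (SD, n = 4) in WT and 72.7 ± 4.76 CPM (SD, n = 3) in KO (log2 fold change -0.47, adjusted p = 0.018 by edgeR). *Synm*, which encodes synemin, a partner of desmin in intermediate filaments, was at 12.2 ± 0.19 CPM in WT and 20.8 ± 5.28 CPM in KO (log2 fold change -0.77, adjusted p = 0.022 by edgeR).

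Neither call was held by every fit. *Hspb1* was called in 4 of 7 fits that left out 1 library, and *Synm* in 2 of 7, those without WT replicate 1 or KO replicate 1, and *Synm* was not called on the TPM scales or with effective length offsets. The most abundant genes of the list, the essential light chain *Myl6* at 468 TPM and *Vim*, had log2 fold changes of 0.21 and -0.06 and were not called.

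The signals that start contraction were listed as 30 genes, of which 23 passed the filter. Here 1 was called, which is 4.35%, beside 11.1% of all tested genes. The called gene was *Gnaq*, the alpha subunit of a G protein that couples contractile receptors to phospholipase C. It was at 62.3 ± 2.55 CPM in WT and 75.6 ± 4.57 CPM in KO (log2 fold change -0.28, adjusted p = 0.0439 by edgeR). It kept its call in 2 of the 7 fits without a library. The small GTPase *Rhoa*, an abundant member at 213 TPM, had a log2 fold change of -0.02 and was not called, and the median of the list was -0.10.

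Transcription factors and signals that control smooth muscle genes gave 3 calls among the 21 of 26 listed genes that passed. That is 14.3%, beside 11.1% of all tested genes. *Hey1*, a Notch target that represses transcription, was higher in WT, at 74.5 ± 11.9 CPM against 32.4 ± 8.67 CPM in KO (log2 fold change 1.20, adjusted p = 0.0105 by edgeR). *Tgfbr1*, a receptor of TGF-beta, was also higher in WT (log2 fold change 0.37, adjusted p = 0.0208 by edgeR), and *Smad3*, which carries the signal of that receptor to the nucleus, was lower in WT (log2 fold change -0.71, adjusted p = 0.0242 by edgeR). *Smad2*, its close relative and the second most abundant gene of the list, had a log2 fold change of 0.03.

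*Hey1* kept its call in 6 of 7 fits that left out 1 library, whereas *Tgfbr1* and *Smad3* kept theirs in 2 of 7. *Hey1* and *Tgfbr1* are also expressed outside smooth muscle. In bulk tissue the values of *Hey1*, *Tgfbr1* and *Smad3* do not place a change in myoid cells. The list's median log2 fold change was -0.13, with 15 of 21 genes below 0.

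Of 30 other listed genes used to recognise myoid cells and their matrix, 29 passed and 1 was called. That is 3.45%, beside 11.1% of all tested genes. *Aldh1a2*, a retinoic acid-synthesizing enzyme that spermatocytes also express, was at 262 ± 30.1 CPM in WT and 154 ± 21.5 CPM in KO (log2 fold change 0.77, adjusted p = 0.0106 by edgeR), and was called in 6 of 7 fits that left out 1 library. The matrix genes *Sparc*, at 938 TPM, and *Col3a1*, at 205 TPM, had log2 fold changes of -0.002 and 0.03. Of the 29 genes, 8 had an unadjusted p under 0.05, beside 30.3% of all tested genes, and the list's median was -0.12.

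Lists of the other somatic cells of the testis were called at 0% to 15.4%, beside 11.1% of all tested genes. Of 16 Sertoli genes, *Kitl* (log2 fold change -0.70) and *Gata4* (-0.33) were called lower in WT, and of 9 Leydig genes *Hsd17b3* was called higher in WT. Of 9 macrophage genes 0 were called by edgeR, and 1 had an unadjusted p under 0.05, beside 30.3% of all tested genes. *Egfl7* was called higher and *Robo4* lower in WT among the 13 endothelial genes that passed. Of the germ cell genes, *Tex101* (log2 fold change 1.27) and *Sycp3* (1.09) were furthest up in WT and *Zbtb16* (-0.86), a gene of undifferentiated spermatogonia, was the gene that was lower. Without 1 library at a time, *Kitl* and *Tex101* kept their calls in 7 of 7 fits, *Sycp3* in 6, *Zbtb16* in 3, *Gata4* and *Hsd17b3* in 2, *Robo4* in 1 and *Egfl7* in 0.

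The authors' tables also divide a gene's counts among its listed transcripts. *Acta2*, *Myh11*, *Des*, *Tagln* and *Myl9* have a single listed transcript, *Actg2* and *Cnn1* have 2, and *Smtn* has 5. For *Cnn1*, the share of counts on Cnn1-201 was 46.6% to 63.6% in WT and 57.6% to 68.5% in KO (p = 0.229, two-sided exact permutation test over the 35 ways to divide 7 libraries into 4 and 3). For *Actg2*, the share on Actg2-202 was 0% to 28.7% in WT and 0% to 45.6% in KO (p = 0.4, same exact test), so the groups overlapped.

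For *Smtn*, a pair of forms did not overlap between the groups. Smtn-202 held 24.2%, 85.5%, 54.8% and 9.94% of the *Smtn* counts in WT replicates 1 to 4 and 0% in each KO library. Smtn-210 held 0%, 5.97%, 16.5% and 20.7% in WT and 47.1%, 30.9% and 29.8% in KO. For each of them the two-sided exact permutation p was 0.0571, the smallest that 4 libraries against 3 allow, so these tests cannot pass 0.05, and adjusted over the 7 shares tested it was 0.2.

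The difference between these forms lies outside the coding sequence. Smtn-210 carries a noncoding exon of 51 bases (chr11:3537555-3537605) that Smtn-202 lacks, and Smtn-202 has 0 31-base words of its own, so that its level is an estimate from what the other forms do not account for. Smtn-203 (7.75% to 66.8% of the counts in WT and 52.9% to 69.4% in KO, p = 0.286 by the exact permutation test) lacks the penultimate exon of 165 bases (chr11:3520752-3520916). With the forms that carry this exon summed, a grouping made after the shares were seen, WT held 25.5% to 92.3% and KO 30.6% to 47.1% of the counts, which overlap (p = 0.571, exact permutation test).

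**Figure D4:**
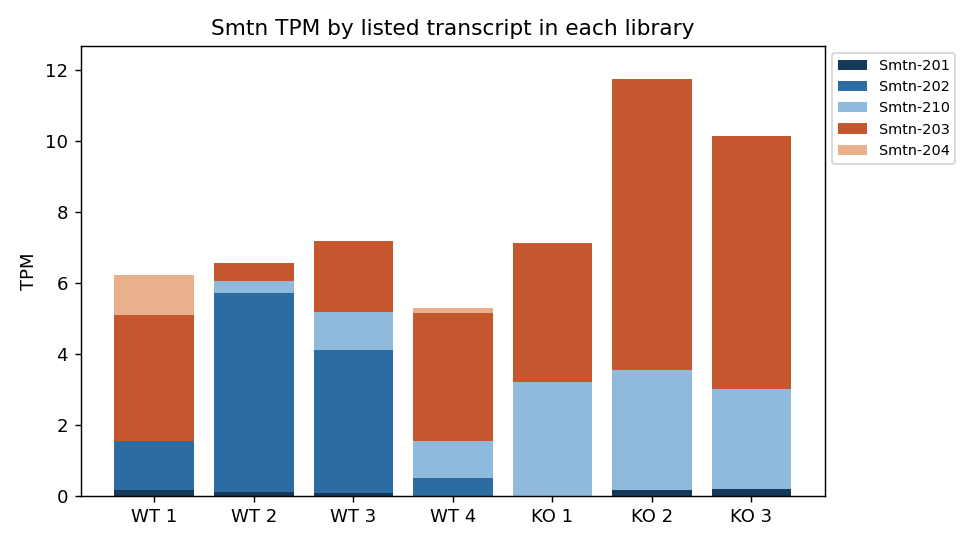
TPM of *Smtn* in each library, stacked by listed transcript; forms with the penultimate exon of 165 bases are in blue and the others in orange. Smtn-202 appears in the 4 WT libraries only, Smtn-210 is highest in the 3 KO libraries, and the total runs from 5.30 to 11.7 TPM.

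The genes whose pattern over the libraries was most like that of the 8 genes were looked for among the 10238 genes that averaged 10 CPM or more, by the Pearson correlation with the mean centred log2 CPM of the 8 genes over the 7 libraries. *C330007P06Rik* (r = 0.967), *Creb3* (0.963), *Capn2* (0.942), *Abhd13* (0.938) and *Slc39a13* (0.936) ranked first. The pattern they follow is shallow: the mean of the 8 genes ran from -0.10 in KO replicate 2 to 0.11 in WT replicate 2 on the log2 scale, and the 5 genes varied by 0.17 to 0.37 on that scale across libraries. The 7 points share libraries and depth with the 8 genes, so the correlations are a description of these libraries.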

How the data were processed

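Bulk RNA-seq libraries (TruSeq Stranded Total RNA, rRNA depleted, 50-base single-end reads) were grouped by the genotype in their labels. Reads were trimmed by the authors (cutadapt 1.8) and assigned by kallisto 0.44.0 with bias correction and strand on GENCODE Basic vM15; the deposited tables hold the estimated count and the TPM of every transcript, and TPM keeps no depth. The spike-ins were not used. Transcripts were matched by Ensembl identifier to GENCODE vM21 on GRCm38 (43020 of 43139 matched; the 119 others held at most 0.282% of the counts of a library), and both units were summed by gene. Estimated counts were rounded and tested with edgeR 4.0.16 in R 4.3.3 (quasi-likelihood, TMM, no covariates, Benjamini-Hochberg), on genes with at least 1 TPM in at least 3 of the 7 libraries. The standard error is the log2 fold change divided by the root of F. DESeq2 1.42.0, limma 3.58.1 and other scalings and filters served as alternatives; the fit was tested on simulated data. A gene with 3 counts in a library stands at 0.151 to 0.237 CPM, for counting error only. Every pair of libraries differed by more than counting noise (by a factor of at least 7.85), so each counted as 1 sample.

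The 8 genes and all other lists were chosen with earlier results of these data known. Named in each further list are its called genes or, above 4, the 2 with the largest change in each direction, and in the contractile, signalling, regulator and myoid lists also the 2 of highest TPM; 1 gene that this rule names is not reported here. The relatives and 5 genes by likeness complete the names. *Rgs5*, *Cspg4*, *Mcam*, *Ckm*, *Actn3* and *Ttn* fall outside this rule and were picked after their values were seen. In the lists, 4 older symbols were not matched.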

Additional observations from a re-analysis of the deposited data

How the results depend on the processing

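The counts of calls changed in fits other than edgeR with TMM, and the median of the contractile genes moved most on the TPM scales. DESeq2 called 2331 genes, limma on log2(TPM + 1) 2522 and on log2(TPM + 0.1) 2506, against 1513; leaving out 1 library gave 131 (KO replicate 3) to 2172 (WT replicate 1). Of the calls, 70.0% were higher in WT, against 47.5% with library size alone, 89.4% when scaled on somatic markers and 17.4% on log2(TPM + 1). Of the 8 genes, 3 were called and 4 did not overlap on both TPM scales, with medians of -0.22 and -0.23. Beside them, 2522 and 2506 of all 13630 tested genes were called on these scales. With filterByExpr, no filter, somatic scaling, effective length offsets (added after the data were seen) and the replicate block, 0 of the 8 were called. When a library was left out, 0 to 1 of the 8 were called and 1 to 3 did not overlap. The share of all tested genes without overlap, 26.2%, was computed only for CPM in the main fit. *Des* had an adjusted p of 0.0237 to 0.266 over the 10 fits other than those without a library. Signs near 0 turned: *Acta2* was -0.025 with library size alone, -0.17 on log2(TPM + 1), -0.18 on log2(TPM + 0.1) and -0.037 (without KO replicate 2) to 0.126 when a library was left out; *Tagln* was -0.087 and -0.089 on the TPM scales and -0.024 (without KO replicate 2) to 0.42; *Myh11* was 0.024 with somatic scaling and -0.067 to 0.015 when a library was left out, above 0 without WT replicate 1 and KO replicate 3. No sign of the other 5 genes turned in the 17 fits. With the replicate number as a block, 109 genes were called; the numbers did not pair the libraries, as deviations from the group means correlated at -0.06, -0.10 and -0.23 between same-numbered libraries. *Meioc* itself kept its call in 2 of 7 fits without a library. Shares of TPM in place of counts left the permutation tests of *Smtn* on the same side.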
